A study of Mus musculus with 3 samples.

Results

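Nuclear receptor genes encode transcription factors that bind DNA, many of them switched by a small lipid-soluble ligand such as a steroid, a retinoid or thyroid hormone. The 45 genes described here were taken by symbol from the GENCODE M39 annotation, out of 21757 protein-coding genes. Peaks of 5-hydroxymethylcytosine (5hmC) enrichment from 3 replicates were merged where they overlapped, and a merged region was given to a gene when its midpoint lay in the gene body or in the 1 kb upstream of it, together called the gene window. By that rule 49 of 13339 merged regions lay in nuclear receptor genes, and 10730 lay in protein-coding genes of any kind.

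The data came from hMeDIP-seq of mouse cerebellum, in which an antibody to 5hmC pulls down sheared genomic DNA before nanopore sequencing on a MinION. The tissue was from female C57Bl6Cr mice at 8 weeks of age, and the 3 library names share a single sample stem, so that the replicates were read as repeat reactions of the same DNA, each from 1 µg with a mean fragment of 362 bp. Replicate 1 used a whole serum antibody and replicates 2 and 3 used an IgG-purified antibody, so that antibody and replicate cannot be told apart. The deposited lists held 496, 8544 and 5166 peaks on the chromosomes used for replicates 1, 2 and 3, with 69822, 104119 and 75591 CpG base-calls inside merged regions.

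Nuclear receptors act as dimers or monomers on short DNA half-sites, recruit coactivators when bound by an agonist, and in several cases recruit corepressors when empty. In the cerebellum the family is best known through Rora, whose loss gives the staggerer mouse with defective Purkinje cells, and through thyroid hormone receptors, which time cerebellar development. 5hmC is formed from 5-methylcytosine (5mC) by TET enzymes and is abundant in the gene bodies of neurons. These files hold DNA marks from whole tissue and no measure of expression.

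Sequences from 3 regions are shown first because each carries direct base-calls in a nuclear receptor gene, and base-calls rather than peaks alone are what show the modified cytosines. They were chosen after the values were seen, as the 300 bp around the midpoint of 1 well-read region in each of 3 genes, with no untranslated exon in the window. Some regions of other genes with more base-calls are not shown. All lie in introns, are in GRCm39 and are printed on the + strand, which is the strand of each gene. Capitals mark each CpG with at least 1 5hmC base-call in any replicate. The sequences cover chr11:98827209-98827508 in the first intron of Rara, chr9:68998679-68998978 in the first intron of Rora and chr14:4242014-4242313 in the first intron of Nr1d2. Introns are those of the longest protein-coding transcript of each gene. The Rara and Rora sequences lie upstream of the start of the transcript that the annotation marks as canonical.
Rara: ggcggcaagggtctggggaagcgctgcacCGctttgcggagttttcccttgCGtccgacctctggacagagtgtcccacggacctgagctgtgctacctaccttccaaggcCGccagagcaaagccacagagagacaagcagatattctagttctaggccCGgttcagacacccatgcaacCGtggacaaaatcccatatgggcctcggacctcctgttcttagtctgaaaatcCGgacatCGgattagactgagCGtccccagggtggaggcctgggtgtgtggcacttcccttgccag
Rora: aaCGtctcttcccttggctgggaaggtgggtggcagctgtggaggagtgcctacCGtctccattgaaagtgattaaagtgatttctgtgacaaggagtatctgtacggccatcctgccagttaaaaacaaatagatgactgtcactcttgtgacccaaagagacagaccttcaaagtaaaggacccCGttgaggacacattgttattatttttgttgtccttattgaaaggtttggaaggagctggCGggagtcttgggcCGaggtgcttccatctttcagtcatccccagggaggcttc
Nr1d2: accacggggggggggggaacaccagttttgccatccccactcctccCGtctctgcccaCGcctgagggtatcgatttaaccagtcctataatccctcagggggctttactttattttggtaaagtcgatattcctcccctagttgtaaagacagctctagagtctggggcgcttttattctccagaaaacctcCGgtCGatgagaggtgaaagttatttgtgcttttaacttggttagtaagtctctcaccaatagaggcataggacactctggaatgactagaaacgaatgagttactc

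In the Rara sequence all 14 CpGs had a base-call and 8 had a 5hmC call, with 10 5hmC, 9 5mC and 8 unmodified C calls over the 3 replicates. In the Rora sequence 5 of 6 CpGs had a 5hmC call, from 7 5hmC, 3 5mC and 14 C calls. In the Nr1d2 sequence 4 of 9 CpGs had a 5hmC call, from 8 5hmC, 8 5mC and 2 C calls. Unmodified calls were thus the most common in the Rora sequence and the least common in that of Nr1d2. The same CpG was seldom read more than a few times: the most base-calls at any CpG of a nuclear receptor region were 1, 4 and 4 in replicates 1, 2 and 3, and the median over all sites was 1 in each.

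Of the 45 nuclear receptor genes 15 held at least 1 region (33.3%), against 20% of all protein-coding genes. Nuclear receptor genes are longer, with a median window of 51.9 kb against 20.2 kb, and per unit of length they did not stand apart. They held 9.81 regions per Mb against 9.99 per Mb over all protein-coding genes, or 50 region and gene pairs where their length gave 50.9. The exact Poisson 95% interval of the ratio to that number ran from 0.729 to 1.29, and covered counting error only. With peaks of at least 4-fold enrichment the ratio was 0.564, from 6 regions. The median gene had 0 regions per Mb in both sets. Among genes with a region the median was 23.6 per Mb in nuclear receptor genes and 33.8 per Mb in all genes. Once only genes with a region are kept, density depends on length, as 1 region in a longer window gives fewer per Mb. Lengths were not matched between the sets, so those medians do not show a lower density in nuclear receptor genes.

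The share of genes with a region rose with length over all genes, and less evenly in nuclear receptor genes. Under 20 kb, 2 of 11 nuclear receptor genes had a region (18.2%) against 9.03% of all genes, and from 20 to 100 kb 8 of 21 did (38.1%) against 24%. From 100 to 300 kb the order was the other way, with 2 of 7 (28.6%) against 50.1%, and over 300 kb 3 of 6 had a region against 64.4%. Each class held few nuclear receptor genes, and the differences between classes were not tested.

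**Figure D1:**
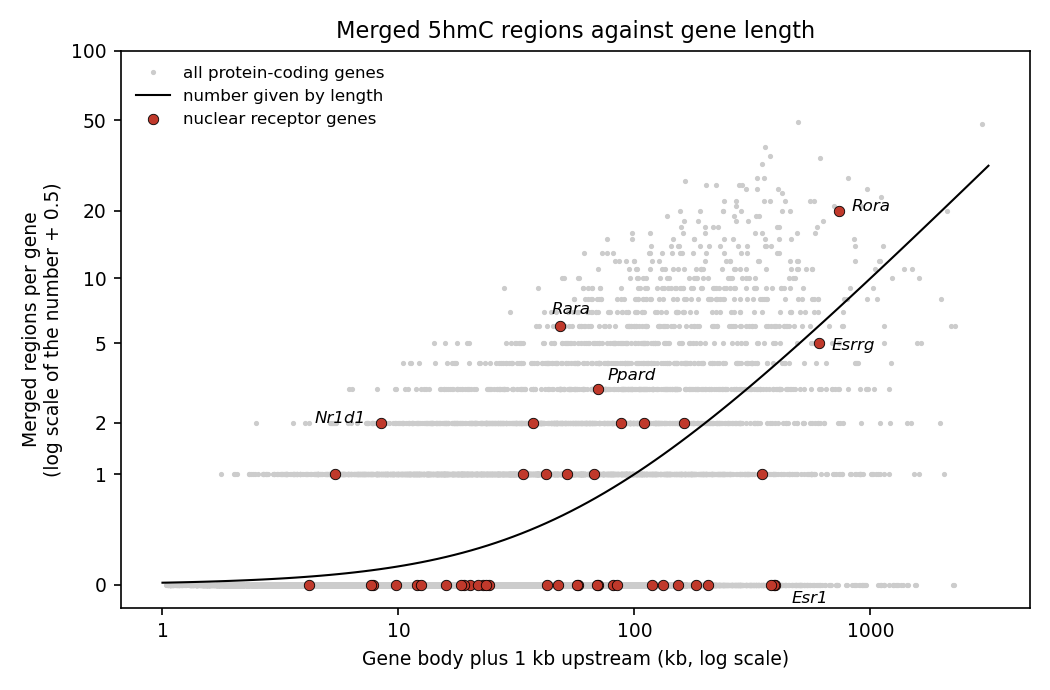
Merged 5hmC regions per gene (vertical axis, log scale of the number plus 0.5) against the length of the gene body plus 1 kb upstream (horizontal axis, kb, log scale). Grey points are 21757 protein-coding genes, red points the 45 nuclear receptor genes, and the line the number that length gives; Rora with 20 regions and Rara with 6 lie above the line, Esrrg with 5 lies near it, and 30 nuclear receptor genes lie at 0.

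No region in a nuclear receptor gene was called in more than 1 replicate, and each of the 49 consisted of a single peak. Over all merged regions 6.00% held peaks of at least 2 replicates. Replicate 1 had no peak in a nuclear receptor gene, where its 427 peak and gene pairs and the share of length (0.452%) gave 1.93. Replicate 2 had 31 against 32.5, and replicate 3 had 19 against 19.8. In replicates 2 and 3 the number of peaks in the family was within 2 of what length gave, while no position recurred between replicates.

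**Figure D2:**
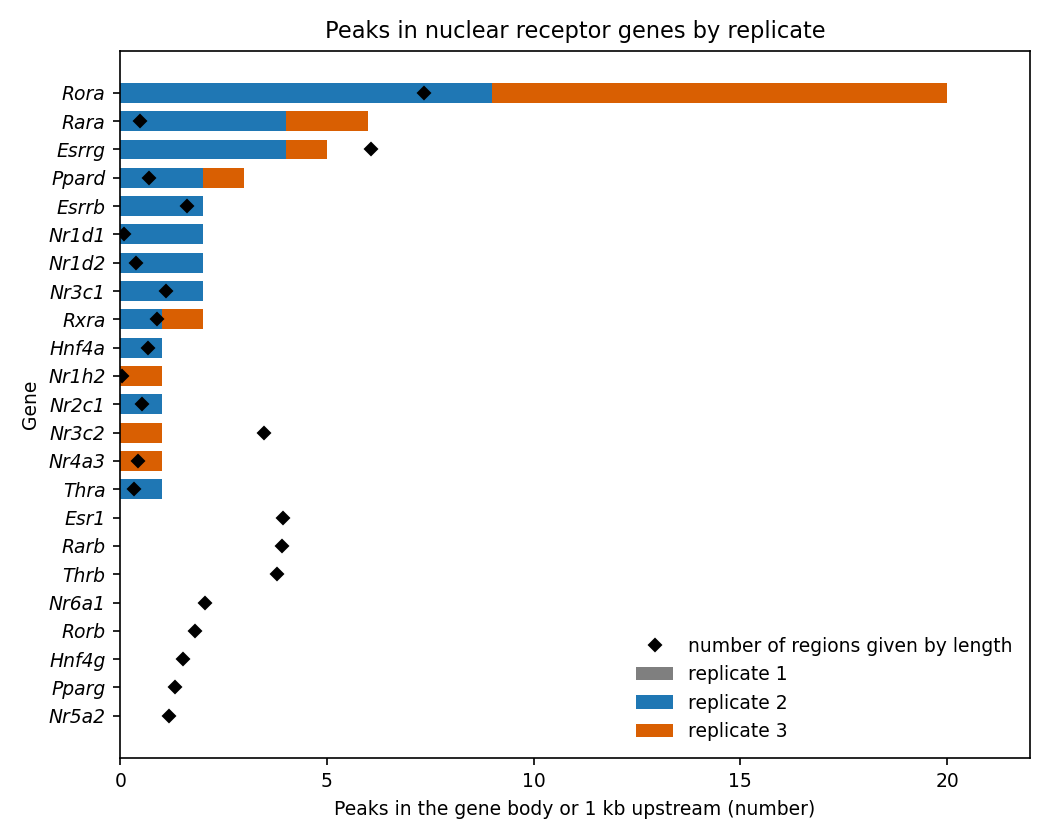
Peaks in each nuclear receptor gene (horizontal axis, number) in replicate 1 (none), replicate 2 (blue) and replicate 3 (orange), with diamonds at the number of merged regions that length gives. Shown are the 15 genes with a region and the 8 without one for which length gives at least 1; Rora extends to 20 and Esr1, Rarb and Thrb have none where length gives 3.8 to 3.95.

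Genes were tested one at a time against the rate of all protein-coding genes with a two-sided exact binomial test and Benjamini-Hochberg adjustment over the 21757 genes. The test called 347 genes higher (1.59%) and 51 lower (0.234%). Among the nuclear receptor genes 2 of 45 were called higher, Rora and Rara, and none was called lower. At an unadjusted p under 0.05 there were 6 of 45, Rora, Rara and Nr1d1 with more regions than length gave and Esr1, Rarb and Thrb with fewer, against 1085 of all 21757 genes. Counts varied between genes more than a binomial allows, with a dispersion of 1.68, so that the binomial p-values are too small. A negative binomial test with that dispersion called 0 of 21757 genes after adjustment. By that test 505 genes had an unadjusted p under 0.05, and 2 of the 45 nuclear receptor genes did, Rara and Nr1d1. As the negative binomial test called no gene at all, its lack of calls in the family says nothing about these genes. Its unadjusted p was 0.202 for Rora, 0.00613 for Rara and 0.0151 for Nr1d1.

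Among the ROR and REV-ERB receptors, 3 of 4 genes held 24 regions between them where length gave 9.61. These are constitutive or haem-regulated receptors that drive and repress the same clock-controlled targets. Rora (ENSMUSG00000032238, chr9:68561068-69295528 on the + strand), the retinoid-related orphan receptor of Purkinje cells, had 20 regions, with an exact Poisson 95% interval of 12.2 to 30.9, where its 735.5 kb window gave 7.34. Replicates 1, 2 and 3 contributed 0, 9 and 11 peaks, where length gave 0.278, 4.68 and 2.86. Both replicates with peaks in Rora lay above the number given by length. Its density was 27.2 regions per Mb, 2.72 times the overall rate (adjusted p = 0.0123, exact binomial test with Benjamini-Hochberg adjustment).

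Only 30 protein-coding genes had more regions than Rora, and among the 579 genes with a window over 300 kb 48 (8.29%) were at least as dense. Of those 579 genes 206 (35.6%) had no region, and their median was 1. The call on Rora needed both replicates: in replicate 2 alone the adjusted p was 1.0 and in replicate 3 alone 0.0745 by the same exact binomial test. Set against its CpG dinucleotides in place of its length, Rora held 2.57 times the overall rate (adjusted p = 0.0386, exact binomial test), but the call was lost with stricter peaks. With a q-value under 0.01 Rora held 10 regions, 2.00 times the number given by length (adjusted p = 1.0, exact binomial test), and with at least 4-fold enrichment 1 region, 0.651 times that number.

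Within Rora the regions were spread along the gene, from 10.4 to 715.4 kb from its start. Of 20 regions 17 lay in the first intron of the longest transcript, which spans 542.1 kb, 2 in later introns and 1 in an exon of another transcript. The canonical transcript starts 635.9 kb into the gene of 734.5 kb, and 18 of 20 regions lay upstream of that start. Most of the gene's length lies there too, and a difference from an even spread was not tested. Neighbouring regions were 2.11 to 170.6 kb apart, with a median of 21.9 kb, and the longest gap ran from 538.8 to 709.4 kb. Together they covered 7.34 kb, or 0.997% of the gene window.

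Fold enrichment over untreated DNA had a median of 3.83 over the regions of all protein-coding genes. In Rora it was likewise low, from 2.87 to 4.79 with a median of 3.67. The highest, 4.79-fold in replicate 2, was at chr9:68629010-68629397 in the first intron, where 1 of 15 base-calls was 5hmC. Regions of replicates 2 and 3 were near each other in places without overlapping: the shortest distance was 2.11 kb, 2 of the 9 regions of replicate 2 had a region of replicate 3 within 10 kb, and the median distance to the nearest was 34.0 kb.

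Base-calls in the Rora regions numbered 15, 111 and 83 in replicates 1, 2 and 3, and 5hmC made up 26.7%, 23.4% and 36.1% of them. The exact binomial 95% intervals, 7.79 to 55.1%, 15.9 to 32.4% and 25.9 to 47.4%, overlapped. Of the 20 regions 19 had a base-call and 17 had a 5hmC call. The 8 regions with at least 10 calls differed widely, from 6.67% 5hmC (1 of 15 calls) at the region of highest fold enrichment to 75.0% (15 of 20 calls) at chr9:69040832-69041239, with a median of 14.2%. Calls of a region come from a few reads, along which neighbouring CpGs are not independent, so that intervals from call numbers are too narrow.

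**Figure D3:**
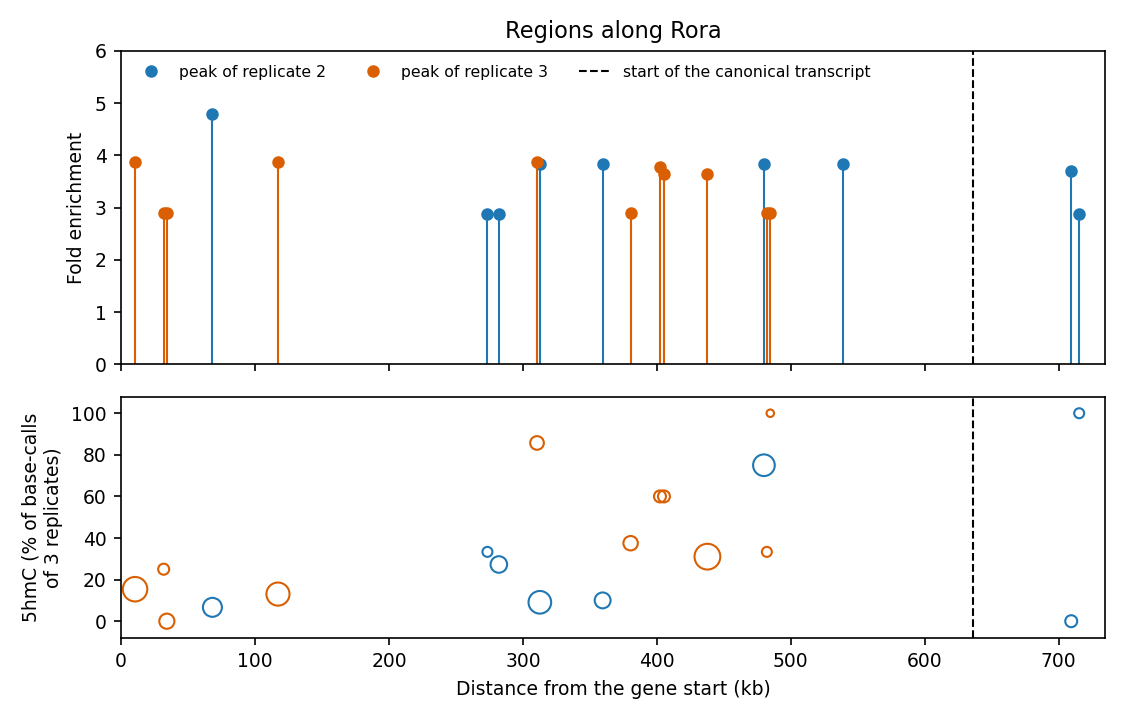
Regions along Rora by distance from the gene start (kb). Upper panel, fold enrichment of each region, coloured by the replicate whose peak it holds (blue, replicate 2; orange, replicate 3). Lower panel, 5hmC as a percentage of the base-calls of all 3 replicates in the 19 regions with a call, with circle area growing with the number of calls; the dashed line marks the start of the canonical transcript at 635.9 kb, and 18 of 20 regions lie to its left.

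The other receptors of this subgroup are the core clock repressors Nr1d1 and Nr1d2 (REV-ERB alpha and beta) and Rorb, a retinal and sensory receptor. Nr1d1 and Nr1d2 had 2 regions each, all from replicate 2, where length gave 0.0843 and 0.37. In the exact binomial test Nr1d1 did not pass after Benjamini-Hochberg adjustment (adjusted p = 0.232), nor did Nr1d2 (adjusted p = 1.0). Nr1d2 held the region of highest fold enrichment in the family, 5.55-fold in the first intron, with 14 5hmC calls of 27 (51.9%). In the Nr1d1 regions 19 of 31 calls were 5hmC in replicate 2 (61.3%, exact binomial 95% interval 42.2 to 78.2%) and 3 of 14 in replicate 3 (21.4%, 4.66 to 50.8%). Rorb had no region in a window of 181.6 kb, where length gave 1.81.

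Among the retinoid and thyroid hormone receptors, 3 of 8 genes held 9 regions where length gave 10.1. Rara (ENSMUSG00000037992, chr11:98818612-98865768 on the + strand), the retinoic acid receptor alpha, had 6 of them in a window of 48.2 kb, where length gave 0.481. Replicates 1, 2 and 3 contributed 0, 4 and 2 peaks, where length gave 0.0182, 0.307 and 0.187. Its density of 124.6 regions per Mb was 12.5 times the overall rate (adjusted p = 0.00247, exact binomial test with Benjamini-Hochberg adjustment), although the exact Poisson interval of the 6 regions ran from 2.2 to 13.1.

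The call on Rara also rested on both replicates, with an adjusted p of 0.0576 in replicate 2 alone and 1.0 in replicate 3 alone by the same exact binomial test. Against CpG number Rara held 6.08 times the overall rate, and the call was lost (adjusted p = 0.0905, exact binomial test). With a q-value under 0.01 all 6 regions were kept, 18.3 times the number given by length (adjusted p = 0.000612, exact binomial test). The call was also lost with peaks of at least 4-fold enrichment, where 2 regions were left, 19.9 times the number given by length (adjusted p = 1.0, exact binomial test). The peak of highest fold enrichment, 4.77-fold in replicate 2, was at chr11:98826943-98827773 in the first intron, with 40 CpGs and 17 5hmC calls of 61 (27.9%). It lay upstream of the start of the canonical Rara transcript. A peak of 4.62-fold at chr11:98839111-98839859 had 9 5hmC calls of 27 (33.3%).

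Base-calls in the Rara regions numbered 31, 64 and 10 in replicates 1, 2 and 3, and 5hmC made up 29.0%, 37.5% and 10.0% of them. Replicate 1 thus had calls in Rara without a peak there. The exact binomial 95% intervals were 14.2 to 48.0%, 25.7 to 50.5% and 0.253 to 44.5%, and the share in replicate 3 rested on 1 5hmC call.

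Rxra, the shared dimer partner of many receptors, had 2 regions, 1 each from replicates 2 and 3, where length gave 0.878. Its 5hmC calls were 1 of 5, 10 of 41 (24.4%) and 12 of 29 (41.4%) in replicates 1, 2 and 3. Thra, the main thyroid hormone receptor of the brain, had 1 region, which lay in its overlap with Nr1d1 on the opposite strand and was counted for both genes. Rarb, Rarg, Rxrb, Rxrg and Thrb had none. For the long genes Rarb and Thrb length gave 3.91 and 3.8, and neither passed the exact binomial test after adjustment (adjusted p = 0.879 for Rarb and 0.946 for Thrb).

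Thra, Rara and the REV-ERB gene Nr1d1 are neighbours on chromosome 11, and their paralogues Thrb, Rarb and Nr1d2 on chromosome 14. On chromosome 11 the windows of Thra, Nr1d1 and Rara cover 87.2 kb and held 8 regions, or 91.7 per Mb. On chromosome 14 those of Thrb, Nr1d2 and Rarb cover 809.3 kb and held 2 regions, or 2.47 per Mb, both in Nr1d2. Summed over the genes, the windows hold 1868 and 5085 CpGs, so that the gap was smaller by CpG number than by length. CpGs in the overlap of Thra and Nr1d1 count for both genes in that sum. The loci were paired after the counts were known and the difference was not tested. 5hmC made up 56 of 150 calls (37.3%) in the regions on chromosome 11 and 14 of 33 (42.4%) on chromosome 14, where the regions of all protein-coding genes had 30.5 to 32.3% in the 3 replicates, and that difference was not tested either.

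**Figure D4:**
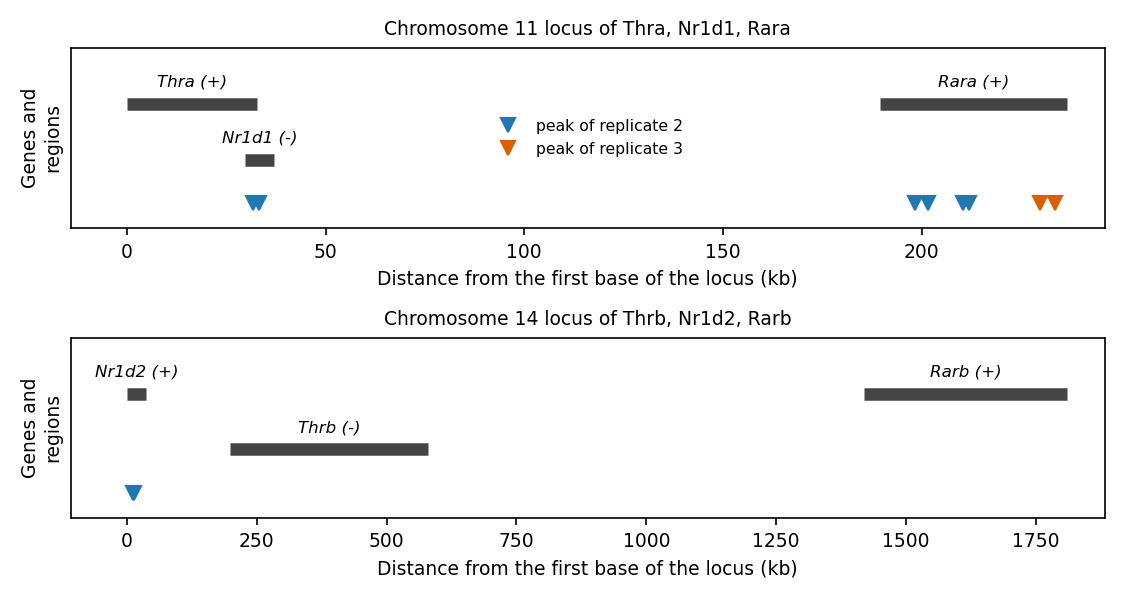
Genes (bars, with strand) and the regions within them (triangles, blue for replicate 2 and orange for replicate 3) by distance from the first base of each locus (kb). The chromosome 11 locus holds 8 regions, of which 6 lie in Rara and 1 in the overlap of Thra and Nr1d1; the chromosome 14 locus is longer and holds 2, drawn on top of each other in Nr1d2.

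Among the oestrogen-related receptors, orphan regulators of mitochondrial and energy metabolism genes, 2 of 3 held 7 regions where length gave 7.8. Esrrg (ENSMUSG00000026610, chr1:187340988-187947082 on the + strand) had 5 regions, with 0, 4 and 1 peaks in replicates 1, 2 and 3, where length gave 0.23, 3.87 and 2.36. In total 6.06 were given by length, and the test called no difference (adjusted p = 1.0, exact binomial test with Benjamini-Hochberg adjustment). Its density of 8.24 per Mb was below that of Rora, a gene of similar length. All of its regions were intronic in the longest transcript. Those up to and including chr1:187702043-187702346 lay upstream of the start of the canonical transcript. Its highest fold enrichment, 3.83, was shared by chr1:187702043-187702346 and chr1:187812593-187813765 in replicate 2.

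Base-calls in the Esrrg regions numbered 0, 25 and 8, with 5hmC at 5 of 25 in replicate 2 and 37.5% in replicate 3. The exact binomial 95% intervals, 6.83 to 40.7% and 8.52 to 75.5%, overlapped. Esrrb had 2 regions, both from replicate 2, and Esrra had none.

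Among the steroid receptors 2 of 5 genes held 3 regions where length gave 9.79. Nr3c1, the glucocorticoid receptor, had 2 intronic regions, both from replicate 2, with 5hmC at 8 of 12 calls (66.7%), 7 of 28 and 1 of 4 in replicates 1, 2 and 3. Nr3c2, the mineralocorticoid receptor, had 1 region where its 347.3 kb window gave 3.47. Esr1, the oestrogen receptor alpha, had none in 395.0 kb, where length gave 3.95 (adjusted p = 0.859, exact binomial test), and Esr2 and Pgr had none.

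Among the lipid, bile acid, vitamin D and xenobiotic sensors 3 of 11 genes held 5 regions where length gave 7.08. Ppard, a fatty acid sensor expressed widely in brain, had 3, of which 2 came from replicate 2 and 1 from replicate 3, where length gave 0.697 (adjusted p = 1.0, exact binomial test). Only 5 base-calls fell in them. Nr1h2, the oxysterol receptor LXR beta, had 1 region in an exon, with 5hmC at 1 of 14 calls in replicate 1 and 7 of 14 in replicate 3. Hnf4a had 1 region, and Ppara, Pparg, Vdr, Nr1h3, Nr1h4, Nr1i2, Nr1i3 and Hnf4g had none.

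Few regions fell in the remaining subgroups. Of the COUP-TF, TLX, PNR and testicular receptors Nr2c1 had 1 region, with no base-call, and Nr2c2, Nr2e1, Nr2e3, Nr2f1, Nr2f2 and Nr2f6 had none. Of the NR4A receptors, which are immediate early genes induced by neuronal activity, Nr4a3 had 1 region with no 5hmC among its 9 calls, all in replicate 3, which allows a share of up to 33.6% by the exact binomial 95% interval, and Nr4a1 and Nr4a2 had none. Nr5a1, Nr5a2, Nr6a1 and Nr0b2 had none, where length gave 3.52 for the 4 genes together. A count of 0 regions allows up to 3.69 by the exact Poisson 95% interval, and at this depth the absence of a region does not show the absence of 5hmC.

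Without Rora the other 44 nuclear receptor genes held 30 region and gene pairs where length gave 43.6, or 6.88 per Mb. Rora alone gave 20 of 50 pairs from 14.4% of the family's window length. It was left out as the gene with the most regions, which by itself lowers the density of the rest. By length class the rest differed: under 20 kb they held 24.8 regions per Mb, resting on 3 pairs, against 12.4 over all protein-coding genes, and from 20 to 100 kb 16 against 10.4. From 100 to 300 kb they held 3.77 against 11.9, and over 300 kb 2.83 against 6.92. Per 1000 CpGs the gap was smaller in the shorter classes, 0.932 against 0.799 under 20 kb and 1.16 against 0.91 from 20 to 100 kb, and the longer classes stayed lower, 0.455 against 1.21 and 0.351 against 0.925.

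Over the 49 regions together, replicates 1, 2 and 3 gave 82, 349 and 184 base-calls, and the 5hmC share was 30.5%, 32.4% and 33.2%. In the regions of all protein-coding genes the shares were 30.5%, 32.3% and 31.6%, inside the exact binomial 95% interval of the nuclear receptor regions in every replicate (20.8 to 41.6%, 27.5 to 37.6% and 26.4 to 40.5%). Mean 5hmC was 32.0% ± 1.37 (SD, n = 3) in nuclear receptor regions and 31.5% ± 0.919 in those of all protein-coding genes. For 5mC the means were 40.3% ± 5.33 and 40.5% ± 0.554, and for unmodified C 27.7% ± 6.66 and 28.0% ± 0.767. With 3 paired values an exact permutation test cannot go below p = 0.25, and none was made.

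Over all merged regions the mean 5hmC share was lower and less even, 24.4% ± 6.72. Leaving out 13 merged regions of very high signal, where some CpG reached 20 calls, it was 30.9% ± 1.53. No nuclear receptor region was among those 13.

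**Figure D5:**
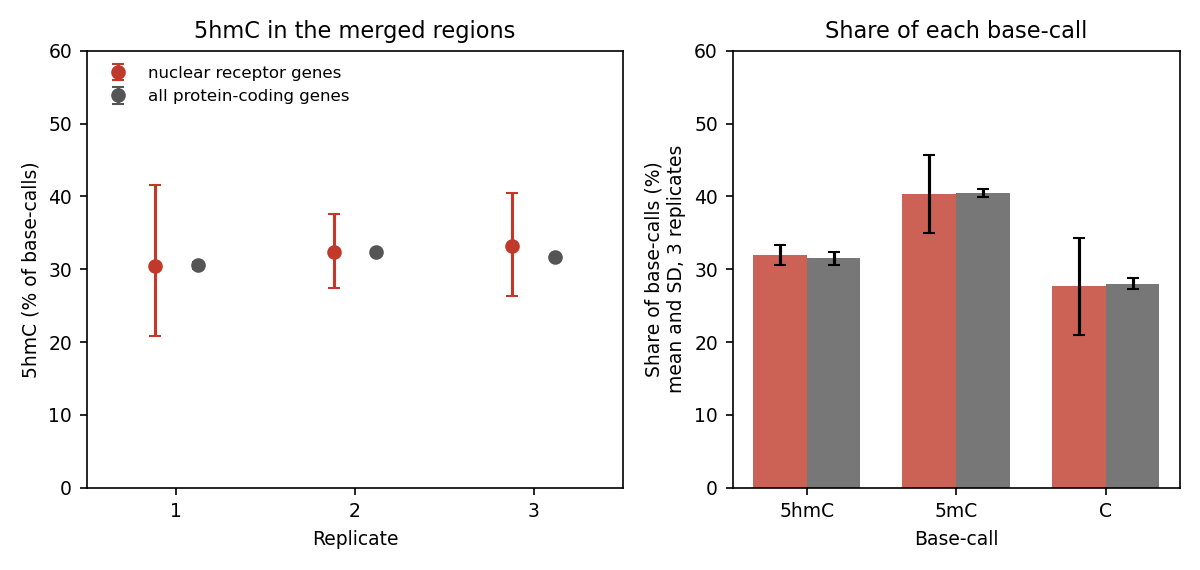
Left, 5hmC as a percentage of base-calls in each replicate, in the 49 regions of nuclear receptor genes (red) and the 10730 regions of all protein-coding genes (grey), with exact binomial 95% intervals that cover counting error only. Right, mean share of 5hmC, 5mC and C over 3 replicates with the SD as error bars; the bars of the 2 sets differ by less than the SD between replicates of the nuclear receptor regions.

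Of the 49 regions 35 carried a 5hmC call in the replicate whose peak defined them, and calls also occurred in the other replicates. In replicate 2 the 30 regions it called had 34.6% 5hmC of 298 calls, and the 19 called in replicate 3 only had 19.6% of 51, of which Rora gave 3 of 34. Without Rora the order turned, with 36.2% in its own regions and 41.2% of 17 calls in the others, and over all protein-coding genes the shares were 32.4% and 31.7%. In replicate 3 its own 19 regions had 34.5% of 145 calls and the others 28.2% of 39, where all protein-coding genes had 30.9% and 34.3%. Replicate 1, with no peak in the family, had 82 calls in 11 of the 49 regions. A region called in a replicate was selected for its coverage there, so these shares are given as a description. Of the 49 regions 44 had a base-call and 37 a 5hmC call, and the 20 with at least 10 calls ranged from 6.67 to 75.0% 5hmC with a median of 29.8%.

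Regions in nuclear receptor genes were close to those of all protein-coding genes in length, CpG number, GC content and fold enrichment, and held fewer base-calls. Their median length was 304 bp, the same as over all protein-coding genes, and 15 were of 304 bp and 13 of 302 bp, where the shortest region of any gene was 295 bp. They held a median of 8 CpGs against 7 and had a median GC content of 49.0% against 49.3%. Median fold enrichment was 3.83 in both. The median region had 7 base-calls against 9, and 5 of 49 (10.2%) had none against 5.22%, differences that were not tested.

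By position, 23 of 50 region and gene pairs (46.0%) lay in the first intron of the longest transcript, against 30.4% over all protein-coding genes. Rora alone gave 17 of the 23. Later introns held 19 pairs (38.0% against 48.3%), exons of any transcript 7 (14.0% against 17.5%), and none lay in the 1 kb upstream (2.41% over all genes).

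The half-site AGGTCA, the core motif of many receptors of the family, was sought on both strands in the 300 bp around each midpoint. It was present in 4 of 49 regions (8.16%), in Rora, Esrrb (2 regions) and Hnf4a, against 18.8% of the regions of all protein-coding genes. All 4 came from replicate 2: the share was 13.3% in replicate 2 alone and 0% in replicate 3 alone. The difference from all genes was not tested. A match to 6 letters is a description of sequence and not a binding site.

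Coregulators link receptors to histone acetylation and deacetylation. Of 20 genes in a list of them 10 had a region, where 20% of all protein-coding genes did. That share was 24% for protein-coding genes of 20 to 100 kb and 50.1% for those of 100 to 300 kb. The list held 31 regions, 14.9 per Mb, where length gave 20.7. The exact binomial test with Benjamini-Hochberg adjustment called 2 of the 20 higher and none lower, against 1.59% and 0.234% of all protein-coding genes. Ppargc1b, a coactivator of energy metabolism genes, had 10 regions where length gave 1.03, from 1, 8 and 2 peaks in replicates 1, 2 and 3 (adjusted p = 6.18e-05, exact binomial test). Nrip1, the corepressor RIP140, had 9 where length gave 0.874, from 0, 6 and 3 peaks (adjusted p = 0.000136, exact binomial test). Among the others Ncoa2 had 3 regions and Ncoa1 and Ncoa7 had 2 each. The 20 genes are long, with 2.07 Mb of window in all, and their median of 3.53 regions per Mb stood against 0 over all genes and 3.37 over protein-coding genes of 100 to 300 kb.

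Genes that make, break down or carry receptor ligands, or that chaperone the receptors, held about as many regions as their length gave. Of 23 genes 5 had a region, where 20% of all protein-coding genes did, and they held 10 regions in all where length gave 9.35. Stra6, the retinol transporter, was the only gene of that list called, where 1.59% of all protein-coding genes were called higher. It had 6 regions where length gave 0.935 (adjusted p = 0.0463, exact binomial test with Benjamini-Hochberg adjustment). Replicates 1, 2 and 3 contributed 0, 4 and 2 peaks. The thyroid hormone deiodinase Dio2, the steroid genes Hsd11b1 and Cyp46a1 and the chaperone Fkbp5 had 1 region each.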

How the data were processed

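hMeDIP DNA of mouse cerebellum was sequenced in 3 replicates. The authors base-called reads with Dorado, aligned them to mm39 (GRCm39) with minimap2 and called narrow peaks per replicate with MACS2 against untreated DNA. The deposited peak lists give a fold ratio over background, −log10 of the p-value and q-value, and a display score. The authors' modkit pileup gives, at CpGs within peaks and outside masked repeats, counts of 5hmC, 5mC and C base-calls and their percent.

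Peaks on chromosomes 1 to 19, X and Y were merged at an overlap of 1 bp (Python 3.11.15, pandas 2.3.3, pysam 0.24.0). Gene bodies were from GENCODE M39. Genes on the Y chromosome stayed among the protein-coding genes although the tissue was female, and their effect on the rate of all genes was not tested. Region counts per gene were compared with the share of window length by a two-sided exact binomial test (scipy 1.17.1) with Benjamini-Hochberg adjustment over 21757 genes at 0.05. On simulated data the binomial test recovered some of the changed genes and also called unchanged ones where counts were overdispersed, and the negative binomial test called none. Base-calls were summed per replicate. Members with at least 5 regions are described singly, those with 1 to 4 by their count, and those with none by name. The rule for printed sequences, regions of at least 2 replicates, gave none. Some items were left out of the lists and their counts and are not reported here. The members, gene lists and tests were chosen with earlier results of these data known. Replicates share 1 DNA sample, so that p-values do not cover the spread between animals. The binomial p-values assume an even rate along the gene windows and do not allow for the wider spread of counts between genes. Alternatives were other peak thresholds, joining and gene rules, CpG number, a negative binomial, coverage minimums and single replicates.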

Additional observations from a re-analysis of the deposited data

How the results depend on the processing

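Without each replicate in turn, the number of regions in nuclear receptor genes ranged from 19 to 49, genes with a region from 8 to 15, genes of all kinds called from 113 to 383, and nuclear receptor genes called from 0 to 2. The ratio of their density to that of all genes ranged from 0.885 to 1.01, the share in first introns from 41.9 to 52.6% and the share with the half-site from 0 to 13.3%. Over the same settings mean 5hmC ranged from 31.4 to 32.8%, 5mC from 38.7 to 43.4% and C from 23.9 to 29.9%. With peaks of at least 4-fold enrichment there were 6 regions in 5 nuclear receptor genes, 56 genes were called, 0 of them in the family, the density ratio was 0.564, 66.7% lay in first introns, 0% held the half-site, and Rora fell from 2.72 to 0.651 times the number given by length, with 1 region, while Rara stood at 19.9 times with 2. With a q-value under 0.01 there were 29 regions, 240 genes called and 1 nuclear receptor gene called, Rara, while Rora stood at 2.00 times the number given by length (adjusted p = 1.0, exact binomial test). By CpG number 210 genes and 1 nuclear receptor gene, Rora, were called, and by the negative binomial 0 and 0. In replicate 2 alone, an alternative chosen after seeing the data, there were 30 regions and 210 genes called, 0 in the family. In replicate 3 alone, chosen likewise, there were 19 regions in 8 genes, 97 genes called, 0 in the family, and 0% with the half-site. At sites with at least 2 calls, from replicates 2 and 3 only, mean 5hmC was 39.4% and C 20%, and inside each replicate's own peaks 5hmC was 34.5%. A minimum of 5 calls left no site. Stricter joining of peaks, any overlap, the gene body alone and regions in 1 gene window kept all counts within 1.5 times. Leaving out Rora, an alternative also added after seeing the data, moved no share of base-calls by more than its SD. The causes were not tested. The median of 1 call per CpG limits what each single region can show.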

Other observations

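Only 6 of the 49 regions reached 4-fold enrichment, and they lay in 5 genes. Nr1d2 had 5.55-fold, Rxra 4.84-fold, Rora 4.79-fold, Rara 4.77-fold and 4.62-fold, and Ppard 4.41-fold. All but the Rxra peak, which was in an exon and came from replicate 3, were intronic peaks of replicate 2. The Ppard region had no base-call in the pileup of any replicate, so that its modification state is not known from these data.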
